A study of Homo sapiens with 6 samples.

Results

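Integrins, laminins, collagens and fibronectin were followed as a group of 84 genes out of 58735 in the deposited table. Members were the protein-coding rows whose symbol names an integrin subunit, a laminin chain, a collagen chain or FN1. They comprised 18 integrin alpha subunits, 8 integrin beta subunits, the integrin-like gene ITGBL1, 12 laminin chains, 44 collagen chains and FN1. After a filter on low counts, 50 members were tested and 34 were not.

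The RNA came from T47D cells, a luminal breast cancer line that expresses estrogen and progesterone receptors, in 3 exposed and 3 control libraries that the series calls biological replicates. Nothing in the labels says that they were separate cultures, so the p-values measure only the spread between these libraries, which may be technical. The title of the series names fine airborne particles (PM2.5). The treatment itself is named only as experimental, and "exposed" stands here for that group. The protocol gives 48 h of exposure in the same wording for control samples, and no dose is stated in the sources used here. No genetic change or other agent is named for either group.

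Epithelial cells rest on a basement membrane, a sheet of laminin trimers and type IV collagen. Each laminin joins an alpha, a beta and a gamma chain, and each collagen is a triple helix of alpha chains. Integrins are pairs of an alpha and a beta subunit that span the cell membrane, bind these proteins outside the cell and couple them to the cytoskeleton inside. Breast epithelium is anchored to its basement membrane by laminin-binding integrins, while fibrillar collagens and type VI collagen are made mostly by fibroblasts in tissue.

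Totals ran from 30970218 to 36878525 counts per library, and the members held 0.174% to 0.182% of them in exposed and 0.175% to 0.192% in control libraries. Of 8 luminal epithelial markers, 5 were lower in exposed cells (KRT8, KRT18, KRT19, ESR1 and PGR). The other 3 did not pass, at log2 fold changes of 0.08 (CDH1), 0.04 (GATA3) and 0.02 (EPCAM). The summed level of the 8 was 7850 to 9870 CPM in exposed and 18900 to 20800 CPM in control libraries (CPM, a gene's counts per 1e6 counts of the scaled library). Most of that sum came from KRT8 (mean 3301 CPM in exposed and 8154 CPM in control cells) and KRT19 (3473 and 7504 CPM). The part of these markers in the results below was not tested. Fibroblast markers summed to 2.05 to 2.47 CPM in exposed and 2.97 to 3.46 CPM in control libraries. THY1 made up most of this (mean 1.59 and 2.42 CPM) and was itself lower (edgeR adjusted p = 0.049). PDGFRB did not pass, and the other fibroblast markers had too few counts to be tested. Endothelial markers summed to at most 0.236 and 0.412 CPM, and basal epithelial markers to at most 0.677 and 0.429 CPM. The leukocyte list summed to 1.23 to 1.62 CPM in exposed and 0.878 to 1.66 CPM in control libraries, most of it from CD14. The endothelial receptor gene KDR was at 0 throughout. In bulk RNA, fewer cells of a kind and less RNA per cell cannot be told apart.

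Exposed cells carried less RNA of the fibril-associated collagen COL12A1 (5.37-fold lower) and of the basement membrane collagen pair COL4A5 and COL4A6. They carried more RNA of the laminin chains LAMC1 and LAMB3 and of the fibronectin receptor subunit ITGA5. Most other members differed by less than 2-fold between the groups. In all, 12 of 50 tested members (24.0%) were higher and 14 (28%) lower at an edgeR adjusted p under 0.05, against 21.8% and 22.1% of all 17337 genes tested and 25.2% and 23.2% of protein-coding genes. The adjusted p is corrected for testing all of these genes. The 26 members that passed are 52.0% of those tested, near the 43.9% of all genes and the 48.5% of protein-coding genes that passed, so the share by itself is not a result about the members. The median log2 fold change was -0.078 over tested members and -0.021 over all tested genes.

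**Figure D1:**
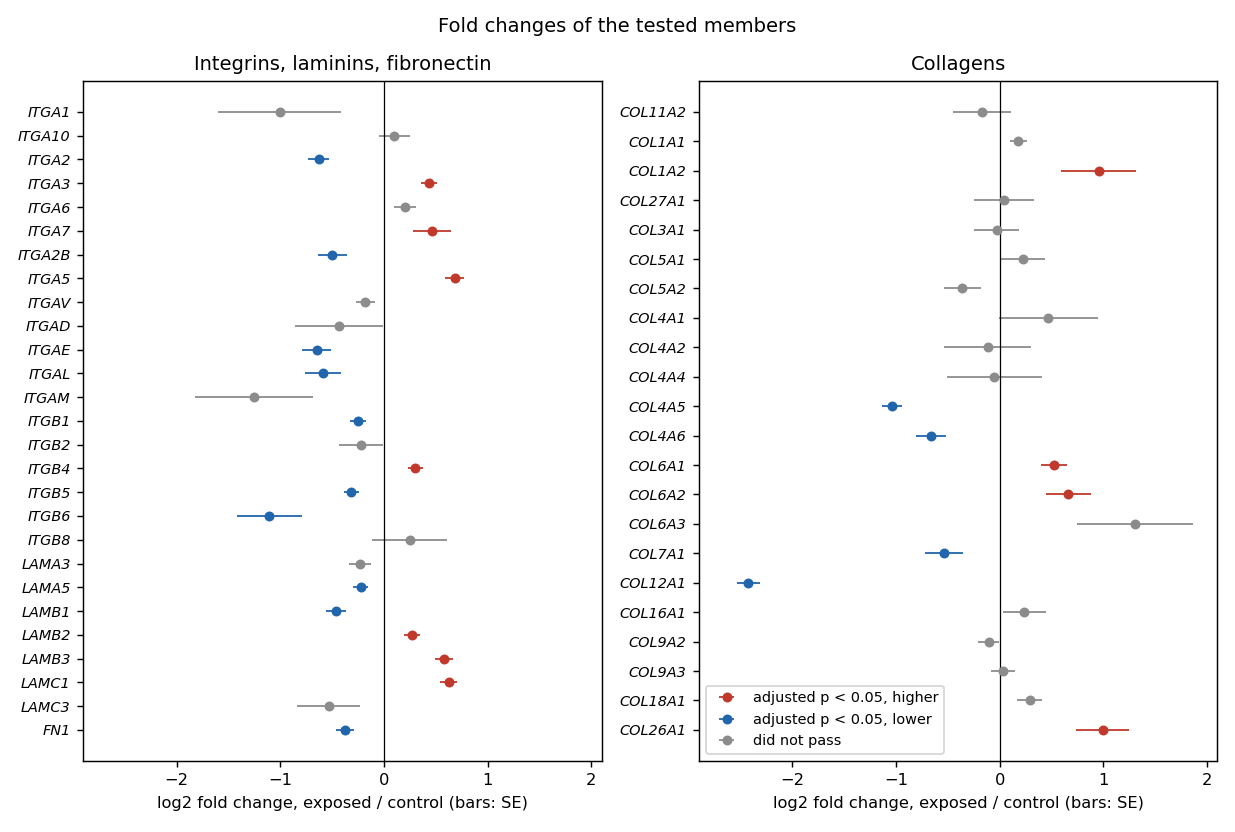
Log2 fold change (exposed over control) of 49 tested members, with bars for the SE; red and blue points passed at an edgeR adjusted p under 0.05 and grey points did not. COL12A1 stands at -2.43, COL4A5 at -1.04 and ITGA5 at 0.68, and most other points lie within 1 of zero.

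At least a 2-fold change with a call was seen for 4 members, or 8.0% of those tested, against 9.22% of all genes. COL12A1, COL4A5 and ITGB6 were among them, all lower. Another 13 members (26.0% of those tested) passed with a change under 1.5-fold, a share that was not computed for all genes. The values of the groups did not overlap for 29 of 50 members (58.0%), against 51.9% of all genes. Tested against a change of 1.5-fold rather than against none, 3 of 50 members passed, COL12A1 and COL4A5 among them. Of all 17337 genes, 1498 passed that test.

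COL12A1 (ENSG00000111799, GRCh38 chromosome 6, 75084326 to 75206051, minus strand) encodes a collagen that coats the surface of fibrils. It stood at 8.25, 11.2 and 8.76 CPM in exposed replicates 1 to 3, against 56.4, 45.6 and 49.4 CPM in control replicates 1 to 3. Every exposed library lay far under every control library. The log2 fold change was -2.43 ± 0.11 (SE, edgeR adjusted p = 1.9e-17), and it ranged from -2.56 to -2.33 over the alternatives that were run. This gene carried most of the difference in the summed collagen level. All 44 collagens together held 203 to 211 CPM in exposed and 241 to 265 CPM in control libraries, and without COL12A1 they held 192 to 202 CPM in exposed and 192 to 209.5 CPM in control libraries. The other fibril-associated collagens with enough counts did not pass. COL9A2 averaged 21.5 ± 0.843 CPM in exposed and 23.2 ± 2.05 CPM in control cells, and COL9A3 16.0 ± 2.1 and 15.7 ± 0.536 CPM (SD, n = 3 each). COL16A1 had a log2 fold change of 0.24 ± 0.21 (SE).

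COL4A5 and COL4A6 encode chains that join in a collagen IV network of epithelial basement membranes. They lie head to head on chromosome X, with 346 bases between the ends of the gene models. COL4A5 (ENSG00000188153, 108439844 to 108697545, plus strand) had 16.7, 19.1 and 20.5 CPM in the exposed libraries, against 40.5, 38.3 and 37.2 CPM in the controls. COL4A6 (ENSG00000197565, 108155607 to 108439497, minus strand) had 6.48, 5.72 and 6.16 CPM in the exposed libraries, against 10.8, 7.80 and 10.5 CPM in the controls. Both genes were lower in each exposed library than in any control library. Their log2 fold changes were -1.04 ± 0.10 (edgeR adjusted p = 2.2e-10) and -0.67 ± 0.15 (edgeR adjusted p = 3.6e-04), with SE. Their start regions are shown because the 2 genes share this stretch of DNA and both changed. The windows are from RefSeq (GRCh38.p14), run from 250 bases before to 50 bases after each start and read 5′ to 3′ along the gene's own strand. Capitals mark the 121 bases that both windows hold, which read as reverse complements of each other.
COL4A5, chrX:108439588-108439887, plus strand: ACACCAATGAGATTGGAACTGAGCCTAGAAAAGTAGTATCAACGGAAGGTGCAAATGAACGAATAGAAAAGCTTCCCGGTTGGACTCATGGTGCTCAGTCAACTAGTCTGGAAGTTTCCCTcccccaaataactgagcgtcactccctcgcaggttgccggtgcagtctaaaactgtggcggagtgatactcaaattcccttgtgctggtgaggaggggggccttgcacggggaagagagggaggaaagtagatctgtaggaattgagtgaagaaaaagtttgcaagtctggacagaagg
COL4A6, chrX:108439409-108439708, minus strand: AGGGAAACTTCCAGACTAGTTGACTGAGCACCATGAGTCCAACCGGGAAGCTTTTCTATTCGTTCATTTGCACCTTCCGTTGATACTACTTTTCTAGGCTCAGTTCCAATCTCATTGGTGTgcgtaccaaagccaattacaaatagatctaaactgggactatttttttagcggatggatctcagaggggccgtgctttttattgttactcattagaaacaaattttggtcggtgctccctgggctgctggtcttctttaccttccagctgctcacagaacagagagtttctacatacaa
The starts behind these windows are 380 bases apart, and a further RefSeq start of COL4A6 lies 1416 bases from that of COL4A5. The shared capitals hold a match to TGACNNNGC, the core of the antioxidant response element, as TGACTGAGC on the COL4A6 strand. That motif, searched on both strands, was found in 13.3% of all 35116 RefSeq windows of this length and in 8.86% of the 79 windows of members.

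The other collagen IV genes were near the limit of detection or did not pass. COL4A1 and COL4A2, the chains of most basement membranes, averaged 0.723 ± 0.373 and 0.640 ± 0.172 CPM in exposed cells, against 0.518 ± 0.346 and 0.693 ± 0.281 CPM in control cells (SD, n = 3 each), with edgeR adjusted p = 0.45 and 0.85. COL4A4 had an adjusted p of 0.94 in the same fit, and COL4A3 fell under the count filter with at most 13 counts in a library. Among network collagens, 2 of 5 tested members thus fell and 3 did not pass, against 22.1% of all genes tested that were lower. So few members give no result by their count. COL7A1, which forms the anchoring fibrils under the skin's basement membrane, had 3.003, 3.004 and 3.83 CPM in the exposed libraries, against 5.33, 4.20 and 4.77 CPM in the controls. Its log2 fold change was -0.54 ± 0.18 (SE, edgeR adjusted p = 0.017), and the call ended in the fit that left out control replicate 1 (adjusted p = 0.089), exposed replicate 1 (0.062) or exposed replicate 2 (0.059).

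Type VI collagen forms beaded filaments next to basement membranes. COL6A1 (chromosome 21, 45981737 to 46005050, plus strand) had 19.3, 16.5 and 20.7 CPM in the exposed libraries, against 14.4, 14.8 and 10.1 CPM in the controls. Its groups did not overlap, and the log2 fold change was 0.52 ± 0.13 (SE, edgeR adjusted p = 0.0011). COL6A2, whose gene lies 93046 bases away on the same strand, had 5.24, 3.52 and 4.91 CPM in the exposed libraries, against 3.08, 3.71 and 1.87 CPM in the controls. Exposed replicate 2 lay within the control range. COL6A2 passed at 0.66 ± 0.22 (SE, edgeR adjusted p = 0.013), but without control replicate 3 the log2 fold change was 0.43 (adjusted p = 0.13), and the call also ended without exposed replicate 1 (adjusted p = 0.054). COL6A3, the third chain, stood at 0.436 ± 0.0211 CPM in exposed and 0.174 ± 0.0635 CPM in control cells (SD, n = 3 each) and did not pass (edgeR adjusted p = 0.059).

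Fibrillar collagens mostly did not pass, with 1 of 7 tested members higher and none lower, against 21.8% and 22.1% of all genes tested. The exception was COL1A2, a chain of type I collagen, at 1.21, 1.29 and 0.998 CPM in the exposed libraries, against 0.616, 0.547 and 0.631 CPM in the controls. Its call (log2 fold change 0.96 ± 0.36, SE, edgeR adjusted p = 0.033) depended on 5 of the 6 libraries. The adjusted p was 0.061, 0.073 and 0.060 without control replicates 1, 2 and 3, and 0.073 and 0.087 without exposed replicates 1 and 2. DESeq2 (adjusted p = 0.063) and the fit with the replicate number as a block (0.052) did not call it either. Its partner chain COL1A1 had 68.2, 70.4 and 70.8 CPM in the exposed libraries, against 61.4, 65.8 and 57.7 CPM in the controls. These groups did not overlap, yet COL1A1 did not pass (log2 fold change 0.18 ± 0.08, SE, edgeR adjusted p = 0.065). It passed without control replicate 2 (adjusted p = 0.014) and in DESeq2 (adjusted p = 0.043). COL3A1, COL5A1, COL5A2, COL11A2 and COL27A1 stood between -0.36 (COL5A2) and 0.22 (COL5A1) on the log2 scale without passing.

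Among the remaining collagens, COL26A1, a little-studied secreted chain, had 3.33, 1.91 and 2.75 CPM in the exposed libraries, against 1.37, 1.30 and 1.34 CPM in the controls. Its groups did not overlap, and it rose by 0.99 ± 0.26 on the log2 scale (SE, edgeR adjusted p = 0.0020). COL18A1, whose end fragment is endostatin, averaged 14.5 ± 1.02 CPM in exposed and 11.9 ± 1.73 CPM in control cells (SD, n = 3 each) and did not pass (edgeR adjusted p = 0.054). It passed with size factors of the DESeq2 type (adjusted p = 0.044) and without control replicate 1 (0.037), control replicate 2 (0.028) or exposed replicate 2 (0.034). Part of its exons, 16.4%, overlaps gene models on the other strand, chiefly SLC19A1.

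**Figure D2:**
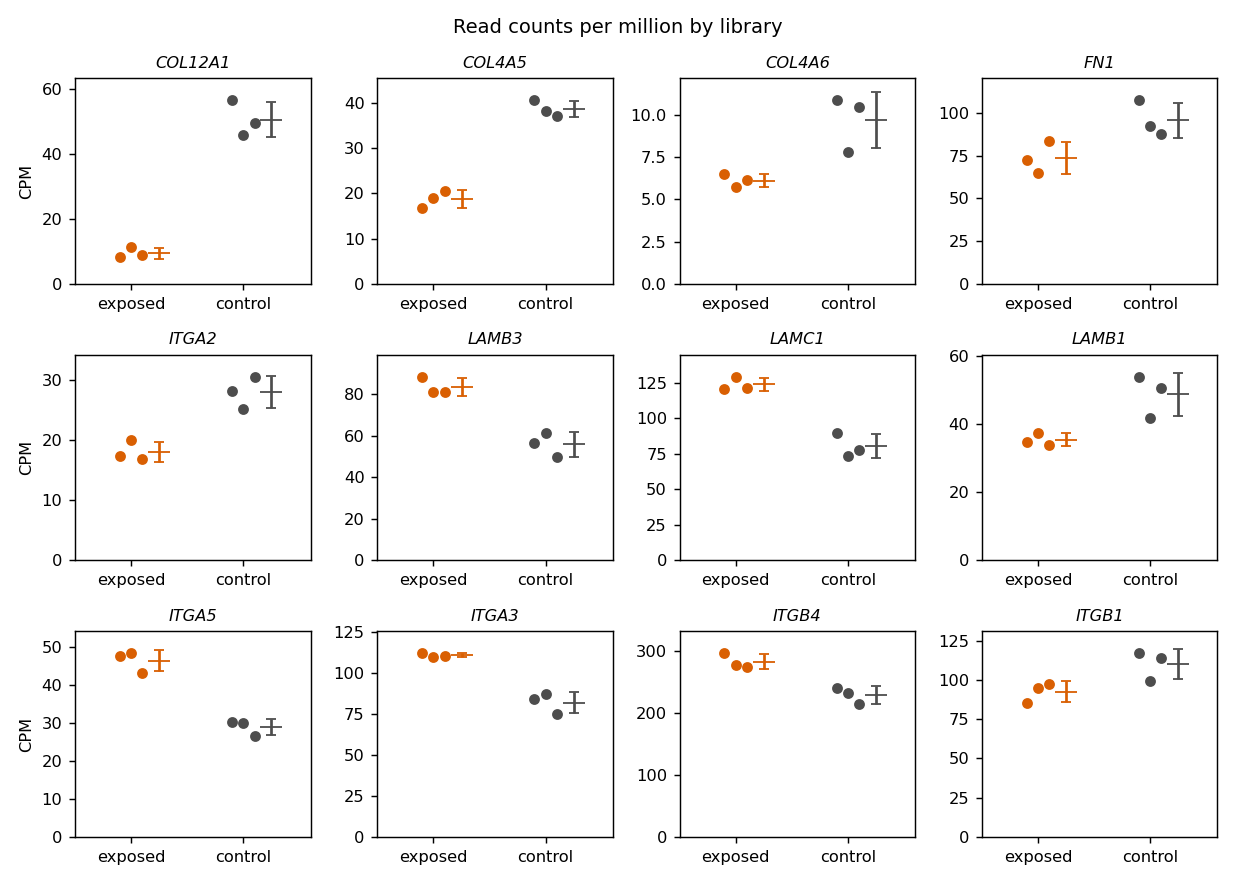
Level in CPM (linear axis from 0) of 12 members in each exposed and control library, with the mean and SD beside the 3 points of a group. The exposed libraries lie under the controls for COL12A1 (8.25 to 11.2 against 45.6 to 56.4 CPM) and above them for LAMC1 (121 to 129 against 73.9 to 89.8 CPM). The 12 were picked from members that passed, and none of them overlaps. Groups did overlap for ITGA2B and COL6A2, which passed and are not drawn, and 51.9% of all genes had no overlap.

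Laminins had 4 of 8 tested chains higher, 2 lower and 2 that did not pass. Of all genes tested 21.8% were higher and 22.1% lower, and of protein-coding genes 25.2% and 23.2%. With so few chains, the counts by themselves are not a result about laminins. Laminin chains together summed to 828 to 830.1 CPM in exposed and 696 to 772 CPM in control libraries. LAMB3, a beta chain that epithelial cells join with the alpha chain LAMA3, had 88.4, 81.3 and 81.1 CPM in the exposed libraries, against 56.6, 61.5 and 49.8 CPM in the controls. The groups did not overlap, and it rose by 0.58 ± 0.08 (log2, SE, edgeR adjusted p = 1.0e-06). LAMA3 did not follow: it averaged 17.4 ± 1.79 CPM in exposed and 20.4 ± 1.72 CPM in control cells (SD, n = 3 each), with a log2 fold change of -0.23 ± 0.11 (SE) that did not pass (edgeR adjusted p = 0.086). Without control replicate 2 it was called lower (-0.30, adjusted p = 0.027).

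LAMC1 (chromosome 1, 183023460 to 183145592, plus strand), the gamma chain of most laminins, had 121, 129 and 122 CPM in the exposed libraries, against 89.8, 73.9 and 77.5 CPM in the controls. It rose by 0.62 ± 0.08 (log2, SE, edgeR adjusted p = 1.3e-07), with no overlap of the groups. LAMB2, a beta chain that pairs with LAMC1, had 362, 349.5 and 364 CPM in the exposed libraries, against 315, 305 and 272 CPM in the controls. Its rise of 0.27 ± 0.08 (log2, SE, edgeR adjusted p = 0.0044) no longer passed without control replicate 3 (adjusted p = 0.066).

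LAMB1, the other common beta chain, went the other way, at 34.8, 37.6 and 33.8 CPM in the exposed libraries, against 53.9, 41.7 and 50.7 CPM in the controls. It fell by 0.46 on the log2 scale (SE 0.09, edgeR adjusted p = 1.6e-04). LAMA5, the alpha chain of the main laminin of adult epithelia, had 192, 199.6 and 192 CPM in the exposed libraries, against 226, 239 and 216 CPM in the controls. Its groups did not overlap, but the change was small at -0.22 ± 0.07 (log2, SE, edgeR adjusted p = 0.013), and the call ended without exposed replicate 1 (adjusted p = 0.051) or exposed replicate 3 (0.090). LAMC3 was under 2 CPM throughout and did not pass.

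Integrin alpha subunits had 3 of 13 tested members higher, 4 lower and 6 that did not pass. The 53.8% that passed compare with 43.9% of all genes and 48.5% of protein-coding genes, so the share is not a result about these subunits. ITGA5, which with ITGB1 forms the classical fibronectin receptor (ENSG00000161638, chromosome 12, 54395261 to 54419460, minus strand), had 47.7, 48.4 and 43.3 CPM in the exposed libraries, against 30.3, 30.1 and 26.6 CPM in the controls. Its groups were clearly apart, and it rose by 0.68 ± 0.09 (log2, SE, edgeR adjusted p = 2.4e-07). Its ligand gene FN1 had 72.2, 64.8 and 83.7 CPM in the exposed libraries, against 107, 92.0 and 87.8 CPM in the controls. FN1 fell by 0.38 on the log2 scale (SE 0.09, edgeR adjusted p = 8.7e-04), so receptor subunit and ligand changed in opposite directions. Exposed replicate 3 of FN1 came within a few CPM of control replicate 3.

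ITGB1, the beta partner of ITGA5, had 85.0, 95.1 and 97.6 CPM in the exposed libraries, against 117, 99.5 and 114 CPM in the controls. The fall of 0.25 on the log2 scale (SE 0.08, edgeR adjusted p = 0.012) was lost on leaving out control replicate 1 (adjusted p = 0.066), control replicate 3 (0.066) or exposed replicate 1 (0.092). ITGA2, the collagen receptor subunit of epithelial cells and platelets, had 17.4, 20 and 17.0 CPM in the exposed libraries, against 28.2, 25.3 and 30.6 CPM in the controls. It fell by 0.63 on the log2 scale (SE 0.10, edgeR adjusted p = 7.9e-06), with no overlap of the groups. The collagen receptor subunits ITGA1 and ITGA10 did not pass; ITGA10 averaged 7.89 ± 1.42 CPM in exposed and 7.38 ± 0.719 CPM in control cells (SD, n = 3 each), and ITGA1 was under 0.5 CPM in each library.

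Receptors for laminin were among the integrins that rose. ITGA3, the laminin-binding partner of ITGB1, had 112, 109.9 and 111 CPM in the exposed libraries, against 84.5, 87.0 and 74.8 CPM in the controls. The exposed values were tightly grouped and all above the controls (log2 fold change 0.43 ± 0.08, SE, edgeR adjusted p = 2.6e-05). ITGB4, which with ITGA6 anchors hemidesmosomes to laminin, had 296, 276 and 274 CPM in the exposed libraries, against 241, 232 and 213 CPM in the controls. It rose by 0.30 ± 0.07 (log2, SE, edgeR adjusted p = 0.0013). ITGA6 itself did not pass: it averaged 19.1 ± 1.64 CPM in exposed and 16.6 ± 0.766 CPM in control cells (SD, n = 3 each; edgeR adjusted p = 0.12). ITGA7, known as a laminin receptor of muscle, had 4.77, 5.49 and 4.16 CPM in the exposed libraries, against 3.73, 2.82 and 3.87 CPM in the controls. Its call at 0.47 ± 0.18 (log2, SE, edgeR adjusted p = 0.040) ended on leaving out control replicate 2 (adjusted p = 0.17), exposed replicate 1 (0.062) or exposed replicate 2 (0.16), in DESeq2 (0.075), in limma-voom (0.0502), with no count filter (0.052) and with the replicate block (0.069).

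ITGAV pairs with several beta subunits to bind fibronectin, vitronectin and latent TGF-beta, and of these ITGB5 and ITGB6 were lower as well as ITGB1. ITGB5 had 81.3, 78.1 and 75.3 CPM in the exposed libraries, against 94.3, 101 and 96.8 CPM in the controls, and fell by 0.32 on the log2 scale (SE 0.08, edgeR adjusted p = 0.0010). ITGB6, which activates latent TGF-beta at epithelial surfaces, had 0.854, 0.549 and 1.44 CPM in the exposed libraries, against 2.41, 2.25 and 1.54 CPM in the controls. The highest exposed value came close to the lowest control value, and the log2 fold change was -1.11 ± 0.31 (SE, edgeR adjusted p = 0.0046). Other gene models on the same strand cover 20.6% of its exonic bases, so its values are uncertain to that extent. ITGAV averaged 39.9 ± 4.21 CPM in exposed and 45.2 ± 2.91 CPM in control cells (SD, n = 3 each) and did not pass (edgeR adjusted p = 0.11), although it passed on leaving out control replicate 2 (adjusted p = 0.034) or exposed replicate 2 (0.042). ITGB8 also did not pass, and ITGB3 fell under the count filter.

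Integrin subunits known from blood cells were present at low levels. ITGAE, the alpha subunit with which intraepithelial T cells bind E-cadherin, had 6.54, 6.20 and 5.63 CPM in the exposed libraries, against 8.31, 9.73 and 10.8 CPM in the controls. It fell by 0.65 on the log2 scale (SE 0.14, edgeR adjusted p = 3.5e-04). ITGAL, the alpha subunit of the leukocyte receptor for ICAM1, had 4.62, 4.72 and 3.58 CPM in the exposed libraries, against 6.51, 7.86 and 5.05 CPM in the controls. Its fall of 0.59 (log2, SE 0.17, edgeR adjusted p = 0.0065) was lost on leaving out control replicate 2 (adjusted p = 0.064) or exposed replicate 3 (0.056). ITGA2B, the platelet fibrinogen receptor subunit, had 8.57, 7.24 and 10.3 CPM in the exposed libraries, against 14.0, 13.1 and 9.82 CPM in the controls. Those groups overlapped, and it passed at -0.50 ± 0.14 (log2, SE, edgeR adjusted p = 0.0049). The common leukocyte gene PTPRC had at most 8 counts in any library. ITGAM, ITGAD and the shared beta subunit ITGB2 did not pass.

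Set per length, the 7 most abundant integrin and laminin genes were the same in both groups, in differing order. LAMB2 led, with a level of 52.2 CPM per kb of exon in exposed and 43.3 in control cells, and ITGB4 followed with 41.7 and 33.8. LAMB3 had a level per kb of 17.8 in exposed and 11.9 in control cells, ITGB1 15.4 and 18.3, LAMC1 14.8 and 9.56, LAMA5 13.6 and 15.9, and ITGB5 12.1 and 15.1. The alpha subunits were led by ITGA3 in both groups (11.3 and 8.38 CPM per kb). In the order of exposed cells, ITGA5 (6.13 and 3.83), ITGAV (4.86 and 5.50), ITGA6 (2.92 and 2.54) and ITGA2 (2.29 and 3.54) came next. ITGA5 thus stood above ITGAV in exposed cells and below it in controls, and so did ITGA6 relative to ITGA2. ITGA6 was far under its partner ITGB4, and LAMA3 (1.19 and 1.39) was far under LAMB3. Lengths are the exons of all transcripts of a gene joined, which understates genes with long rarely used exons.

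**Figure D3:**
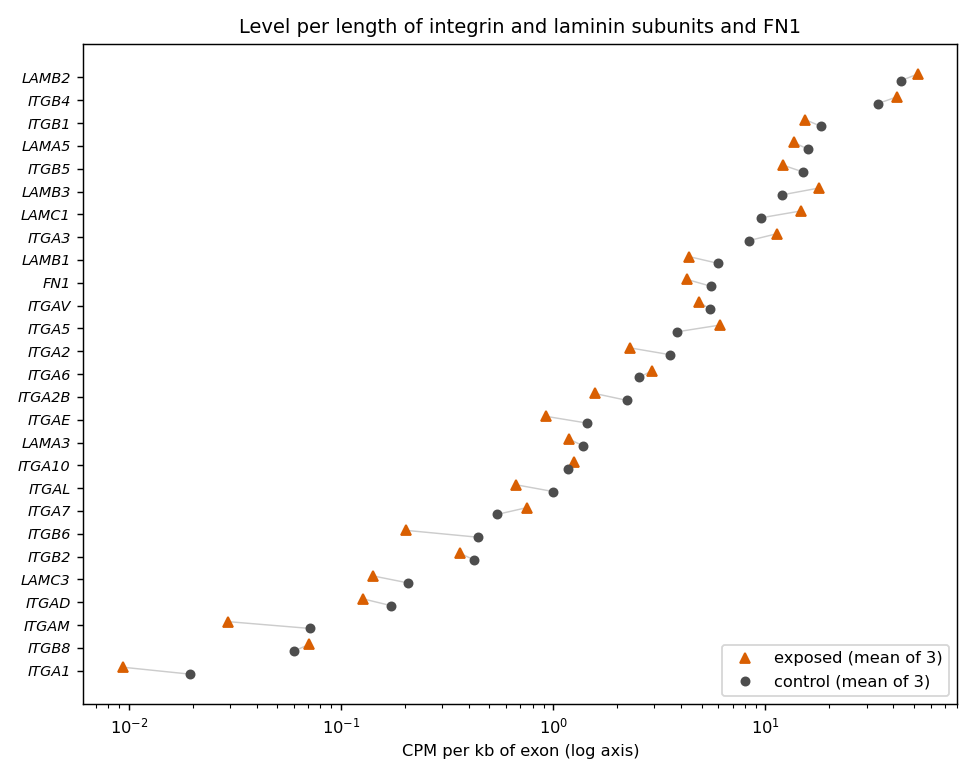
Mean level per length (CPM per kb of exon, log axis) of 27 tested integrin, laminin and FN1 genes, with exposed cells as triangles and control cells as dots. LAMB2 and ITGB4 are highest in both groups (52.2 and 41.7 in exposed, 43.3 and 33.8 in control cells), and ITGA5 lies above ITGAV in exposed cells only.

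The start regions of COL12A1, LAMB3 and ITGA5 are shown as those of the member that fell most and of 2 that rose. Other members that rose also have an entry and are not shown. In the table of start regions 60 of 84 members were matched. Capitals mark, on either strand, GCGTG, the core bound by the aryl hydrocarbon receptor, and TGANTCA, the site of AP-1. LAMB3 has 3 RefSeq starts, and the innermost is shown because it alone of the 3 windows holds TGANTCA.
COL12A1, chr6:75206004-75206303, minus strand: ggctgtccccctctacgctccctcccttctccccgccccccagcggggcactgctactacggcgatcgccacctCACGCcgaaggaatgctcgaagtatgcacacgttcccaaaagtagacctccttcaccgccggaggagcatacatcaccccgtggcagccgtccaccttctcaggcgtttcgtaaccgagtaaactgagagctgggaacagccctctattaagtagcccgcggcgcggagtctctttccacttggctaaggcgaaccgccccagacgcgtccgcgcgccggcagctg
LAMB3, chr1:209651325-209651624, minus strand: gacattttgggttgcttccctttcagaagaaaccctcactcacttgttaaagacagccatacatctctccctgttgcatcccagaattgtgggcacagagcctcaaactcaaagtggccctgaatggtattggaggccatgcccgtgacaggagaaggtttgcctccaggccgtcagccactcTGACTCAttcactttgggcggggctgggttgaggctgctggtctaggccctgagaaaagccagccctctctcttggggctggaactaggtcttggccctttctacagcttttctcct
ITGA5, chr12:54419217-54419516, minus strand: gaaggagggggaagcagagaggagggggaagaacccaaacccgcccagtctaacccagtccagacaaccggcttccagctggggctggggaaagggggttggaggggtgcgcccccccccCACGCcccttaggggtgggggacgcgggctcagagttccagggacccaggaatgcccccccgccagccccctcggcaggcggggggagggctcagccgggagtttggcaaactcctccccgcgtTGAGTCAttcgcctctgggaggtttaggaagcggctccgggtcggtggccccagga
COL12A1 holds GCGTG in antisense 176 bases before its start. ITGA5 holds it in antisense 130 bases before the start and has TGAGTCA 6 bases before the start. The LAMB3 window has TGACTCA 67 bases before its start. Among members, TGANTCA was found in windows of COL10A1, ITGA5, LAMA3 and LAMB3 only. Of these, LAMA3 did not pass and COL10A1 was under the count filter. LAMC1, LAMB2, COL6A2 and COL26A1 also rose and have entries, all without TGANTCA. Over all RefSeq windows 36.5% hold GCGTG and 7.71% TGANTCA, against 35.4% and 5.06% of the members' 79 windows. GGGCGG, the SP1 motif, was in 45.0% of all windows and 57.0% of those of members. These matches describe letters and not binding.

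Of the 34 members under the count filter, 20 had fewer than 10 counts in every library, and ITGA8 had none at all. The other 14 reached 10 to 23 counts in a library. ITGB7, the partner of ITGAE, had 2, 7 and 1 counts in exposed replicates 1 to 3, against 22, 9 and 23 counts in control replicates 1 to 3. COL15A1 had 4, 5 and 10 counts in the exposed libraries, against 20, 15 and 6 in the controls, and COL8A1 had 12, 12 and 6 counts in the exposed libraries, against 2, 0 and 4 in the controls. With the filter removed, edgeR fitted 33 of these members and called 3 lower and 1 higher, all from few counts. ITGB7 was lower (log2 fold change -2.25 ± 0.70, SE, edgeR adjusted p = 0.0075), and DESeq2 also called it (adjusted p = 0.031). Its groups did not overlap, but 42.1% of its exonic bases are overlapped by gene models on the other strand, chiefly ZNF740. COL10A1, with 0, 4 and 0 counts in the exposed libraries against 6, 8 and 16 in the controls, was also called lower (edgeR adjusted p = 0.042), though not by DESeq2 (0.081). So was COL4A3, with 3, 0 and 0 counts in the exposed libraries against 13, 6 and 8 in the controls (edgeR adjusted p = 0.043). COL24A1 was called higher (edgeR adjusted p = 0.011) with 0, 14 and 4 counts in the exposed libraries and 0 in every control, so its groups overlapped at 0. COL8A1 stood at an edgeR adjusted p of 0.0501 without the filter, and the fits that left out control replicate 3 (0.019) or exposed replicate 3 (0.013) called it higher. The rest were ITGA11, LAMA2, LAMA4, LAMB4, COL2A1, COL8A2, COL21A1 and COL23A1, none of which was called in the unfiltered edgeR fit.

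Genes that act with these proteins were counted in 5 lists of 97 genes, 83 of them tested. Over the lists 19 genes (22.9%) rose and 24 (28.9%) fell, against 21.8% and 22.1% of all genes tested, whose median log2 fold change was -0.021. Of 26 genes of the integrin adhesion complex on the inner face of the membrane, 11 fell (42.3%), 3 rose (11.5%) and 12 did not pass (median log2 fold change -0.05). TNS2, a tensin, had 35.1, 31.9 and 32.9 CPM in the exposed libraries, against 55.8, 53.0 and 49.7 CPM in the controls (log2 fold change -0.67 ± 0.09, SE, edgeR adjusted p = 1.6e-07). FERMT1, the epithelial kindlin that activates integrins, had 4.71, 4.98 and 3.88 CPM in the exposed libraries, against 7.96, 9.36 and 9.63 CPM in the controls (-0.99 ± 0.15, edgeR adjusted p = 2.5e-06). Both genes were lower in each exposed library than in any control.

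Of 24 tested genes of collagen synthesis and crosslinking, 7 rose (29.2%), 5 fell (20.8%) and 12 did not pass (median -0.01). PLOD2, the lysyl hydroxylase of collagen ends, had 75.0, 74.2 and 98.3 CPM in the exposed libraries, against 168, 139 and 154 CPM in the controls (log2 fold change -0.90 ± 0.10, SE, edgeR adjusted p = 3.1e-08). P3H3, of the prolyl 3-hydroxylase family, had 38.4, 34.7 and 38.3 CPM in the exposed libraries, against 27.9, 26.9 and 25.8 CPM in the controls (0.47 ± 0.09, edgeR adjusted p = 8.9e-05). The number that fell was 2 without control replicate 1 and 3 without control replicate 2, and the number that rose was 4 without control replicate 3.

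Of 11 tested genes of the basement membrane and hemidesmosome, 4 fell (36.4%), 1 rose (FRAS1, 9.09% of the list) and 6 did not pass (median -0.13). FRAS1 no longer passed without control replicate 3. AGRN, the heparan sulfate proteoglycan agrin, averaged 389 CPM in exposed and 605 CPM in control cells (log2 fold change -0.64 ± 0.08, SE, edgeR adjusted p = 2.9e-08). NTN4, a netrin that binds laminin, was at -0.74 ± 0.12 (edgeR adjusted p = 8.5e-06). Matrix receptors other than integrins numbered 11 tested, of which 5 rose (45.5%), 2 fell (18.2%) and 4 did not pass (median 0.18). A single one fell without control replicate 1, control replicate 3 or exposed replicate 1. ADGRG1, an adhesion receptor that binds type III collagen, averaged 375 CPM in exposed and 195 CPM in control cells (0.94 ± 0.07, edgeR adjusted p = 5.4e-12). CD44, the hyaluronan receptor, was at 0.36 ± 0.08 (edgeR adjusted p = 2.7e-04).

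Among 11 tested matrix glycoproteins and integrin ligands, 3 rose (27.3%), 2 fell (18.2%) and 6 did not pass (median 0.20). THBS1, the matrix protein thrombospondin, had 13.2, 15.4 and 13.9 CPM in the exposed libraries, against 131, 114 and 136 CPM in the controls. It was 8.95-fold lower (log2 fold change -3.16 ± 0.09, SE, edgeR adjusted p = 1.6e-22), more than any member. ICAM1, the ligand of the integrin of ITGAL and ITGB2, had 54.6, 56.8 and 54.0 CPM in the exposed libraries, against 18.7, 17.5 and 14.1 CPM in the controls. It rose by 1.72 ± 0.10 (log2, SE, edgeR adjusted p = 3.4e-15), with 23.6% of its exonic bases overlapped by gene models on the other strand. A single gene of this list rose without control replicate 3 or exposed replicate 2.

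**Figure D4:**
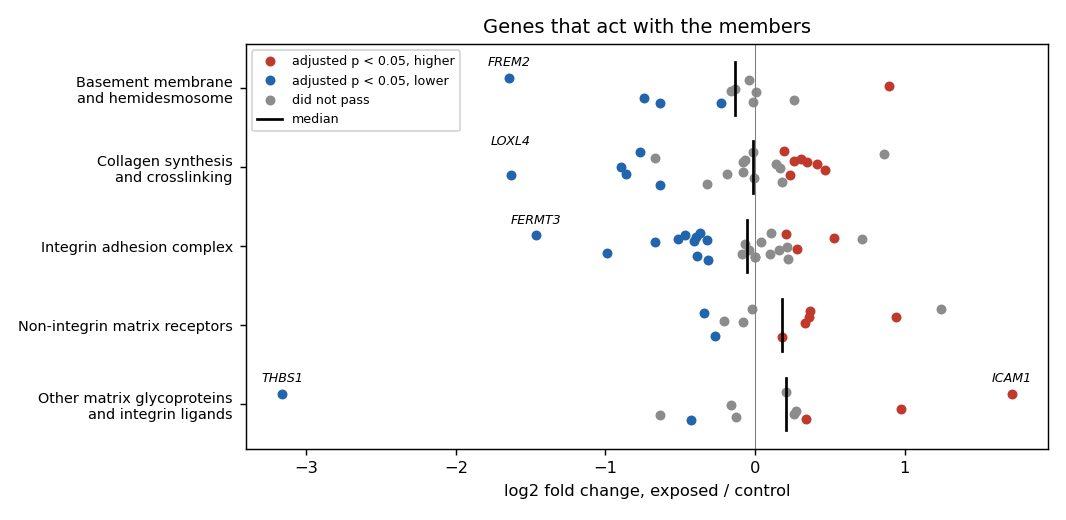
Log2 fold change (exposed over control) of the tested genes in the 5 lists of partner genes, 1 point per gene coloured by its call, with a black line at each list's median. THBS1 at -3.16 and ICAM1 at 1.72 are the outermost points, and the medians lie between -0.13 and 0.20.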

How the data were processed

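The authors deposited whole-number read counts per gene for 6 libraries, and the submitters' processing notes name the build GRCh38. No aligner, counter, annotation release or strand setting is stated in the sources used here, so reads of overlapping or antisense genes cannot be told apart. Per the file headers each gene has a length. All 84 members had the coordinates, strand and joined exon length of GENCODE 29.

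Groups came from the sample titles. Testing used edgeR 4.0.16 under R 4.3.3 (genes kept by filterByExpr, minimum count 10, minimum total 15, TMM factors 0.948 to 1.04, robust quasi-likelihood test). Benjamini-Hochberg adjustment ran over 17337 genes, with a threshold of 0.05. CPM use the TMM-scaled library sizes, SD are over 3 libraries, and the SE is the log2 fold change divided by the square root of F. The chi-square per degree of freedom between libraries of 1 group was 7.66 to 16.4, above sampling noise. The fit was tested on simulated counts.

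The members, roles, lists and rules were chosen with earlier results of these data known. Members that passed are given per library, except 1 that is not reported here, with the 8 most abundant that did not pass, untested members with at least 10 counts in a library, and the 2 genes of smallest adjusted p per partner list. Others named were chosen after their values were seen. Alternatives were DESeq2-type size factors, no count filter, at least 1 CPM in 3 libraries, DESeq2 1.42.0, limma-voom (limma 3.58.1), the replicate number as a block, each library left out, a test against a 1.5-fold change, and protein-coding genes alone. Sequences were RefSeq windows (GRCh38.p14).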

Additional observations from a re-analysis of the deposited data

How the results depend on the processing

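None of the 26 calls reversed in 14 alternatives, and 18 held in all of them but the test against a 1.5-fold change. That test, which asks for a larger change, left 1 member higher and 2 lower, 1498 genes in all, and 2 partner genes higher and 4 lower, against 12, 14, 7610, 19 and 24. With each library left out in turn, members higher numbered 9 to 13 and members lower 12 to 16, all genes called 6262 to 7637, and partner genes 11 to 20 higher and 18 to 23 lower. The 11 came without control replicate 3. Of members that did not pass, COL9A3 (0.03 with all libraries) ranged from -0.052, without exposed replicate 1, to 0.13, without exposed replicate 2, and ITGA10 (0.10 with all) from -0.033, without exposed replicate 3, to 0.21, without exposed replicate 2 (log2); the cause was not tested. The stricter count filter left out COL1A2. Same-numbered exposed and control libraries did not deviate together (correlations -0.074, -0.080 and 0.005), and no library correlated best with its own number. With the replicate number as a block, 10 members were higher and 14 lower, and 6779 genes were called. No scaling moved the median of all genes by over 0.1 (log2). With no count filter, 12 members were higher and 17 lower: ITGA7 was lost, and 4 members under the filter were called (ITGB7, COL10A1 and COL4A3 lower, COL24A1 higher), each at 23 counts or fewer in every library.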

Other observations

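ILK, the integrin-linked kinase of the adhesion complex list, was singled out after its values were seen. It had 1, 6 and 2 counts in exposed replicates 1 to 3, against 4, 3 and 15 counts in control replicates 1 to 3, and fell under the count filter. In GENCODE 29, 78.5% of its exonic bases overlap other gene models on the opposite strand, chiefly TAF10, which had 443, 424 and 446 counts in the exposed libraries, against 339, 407 and 385 in the controls. Among the members, ITGB3, with 4 counts in 1 exposed library and 0 in all others, shares 51.6% of its exonic bases with other gene models on its own strand.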
